A study of Mus musculus with 21 samples.

Results

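The SRC family of tyrosine kinases was examined in mouse B cell precursors through 8 genes. They were chosen by symbol and not by a rule on their values, with earlier results of these data known. They are the kinases Lyn, Blk, Fyn, Lck, Fgr, Src and Yes1, and Csk, the kinase that holds the family in check. All 8 had a value in the deposited tables, which list 24421 gene symbols. RNA was taken from primary B cell precursors of the bone marrow of 53BP1-/- C57BL/6 mice, in which the gene of the DNA repair protein 53BP1 is disrupted, so that all 3 conditions share this deletion. The cells were grown with 10 ng/ml of interleukin-7 (IL-7) and transduced with the empty retroviral vector MIGR1 (EV), with MIGR1 carrying human BCR-ABL1p210, a fusion kinase of leukemia, or with MIGR1 carrying mouse C-MYC, a transcription factor. Cells were harvested 7 to 9 days after transduction, and there were 2 libraries for each condition. The EV cells are untransformed bone marrow cells enriched by culture, with no sort stated, and in the other conditions the oncogene is expressed from a retrovirus. Per the study's methods, red cells of the marrow were lysed at isolation and dead cells were removed at harvest. The age of the mice, and whether bone marrow of several mice was pooled, are not given in the sources used here.

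SRC family kinases are membrane-anchored tyrosine kinases that pass signals from receptors without kinase activity of their own. In B cell precursors, Lyn, Blk and Fyn phosphorylate the CD79A and CD79B chains of the pre-B cell receptor, which recruits SYK. Lyn also phosphorylates inhibitory receptors such as CD22, which recruit the phosphatase SHP-1. Lck does the work of Lyn and Blk at the T cell receptor, Fgr is best known from myeloid cells, and Src and Yes1 are made in many tissues. Csk phosphorylates the tail of each family member, which closes the kinase, and the phosphatase CD45 reopens it. BCR-ABL1 is itself a tyrosine kinase, and SRC family kinases are known to act with it in B cell leukemia. The data here are transcript levels and do not measure kinase activity.

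The libraries held between 20687092 and 24095955 counts. Myc, which checks the C-MYC labels, had 3869 and 3277 counts with EV, 7239 and 8381 with BCR-ABL1 and 37920 and 27450 with C-MYC. Trp53bp1, the gene disrupted in these mice, had between 342 and 723 counts in every library, so its count per gene does not show the deletion. All 10 markers of B cell precursors that were looked up, among them Pax5, Ebf1 and Vpreb1, were measured, with a summed level between 4337 and 6263 CPM (counts relative to the library total, scaled between libraries by the TMM method) in every library. Cd24a alone held 3031 of the 6263 CPM in EV 1 and 3305 of the 5357 CPM in C-MYC 1, so the sum follows it in large part. As given below, 7 of the 10 were lower in C-MYC than in EV and 0 higher. Markers of other cells were higher in EV. The 11 myeloid markers summed to 1280 and 1207 CPM with EV, 147 and 169 with BCR-ABL1 and 210.0 and 375 with C-MYC. The 13 markers of T and NK cells summed to 309 and 236 CPM with EV, 84.3 and 75.1 with BCR-ABL1 and 126 and 89.8 with C-MYC. Outside EV most of this sum was Thy1 and Lat, with 81.1 and 35.2 CPM in C-MYC 1. Cd3e, a chain of the T cell receptor complex, had a mean of 16.2 CPM with EV, 0.964 with BCR-ABL1 and 0.637 with C-MYC. The 6 stromal markers summed to 104 (EV 1) and 157 (EV 2) CPM, against at most 6.15 in any other library, and the 7 erythroid and mast cell markers to 37.8 and 37.5 CPM in EV against at most 2.80. Of the latter, Hbb-bt, Hbb-bs and Hba-a1 were at 0 in every library. In bulk RNA of this kind, fewer cells of a type and less RNA per cell cannot be told apart.

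In BCR-ABL1 cells, Fyn was higher than in EV, whereas Blk and Fgr were lower and Lyn, Src, Yes1, Lck and Csk did not pass the test. Relative to the library, 6 of the 8 genes were lower in C-MYC cells than in EV cells: Lyn, Blk, Fyn, Lck, Src and Fgr. The scaled counts do not give the amount of RNA per cell, in this or any other comparison. Between the oncogenes, Lyn, Blk, Fyn and Lck were all higher in BCR-ABL1 cells than in C-MYC cells. Csk passed the test in none of the 3 comparisons. All comparisons used edgeR's quasi-likelihood test on the counts of 12786 genes, with Benjamini-Hochberg adjustment over all of them, and a gene was called at an adjusted p below 0.05. This test had no term for the replicate number. With such a term, Lyn was also called lower in BCR-ABL1 than in EV (adjusted p = 0.00566), and Yes1 lower in BCR-ABL1 than in C-MYC. All 8 genes passed the filter on low counts, which asks for about 0.44 CPM in at least 2 libraries. Of them, Fgr and Yes1 reached that level in 5 of the 6 libraries and the others in all 6.

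**Figure D1:**
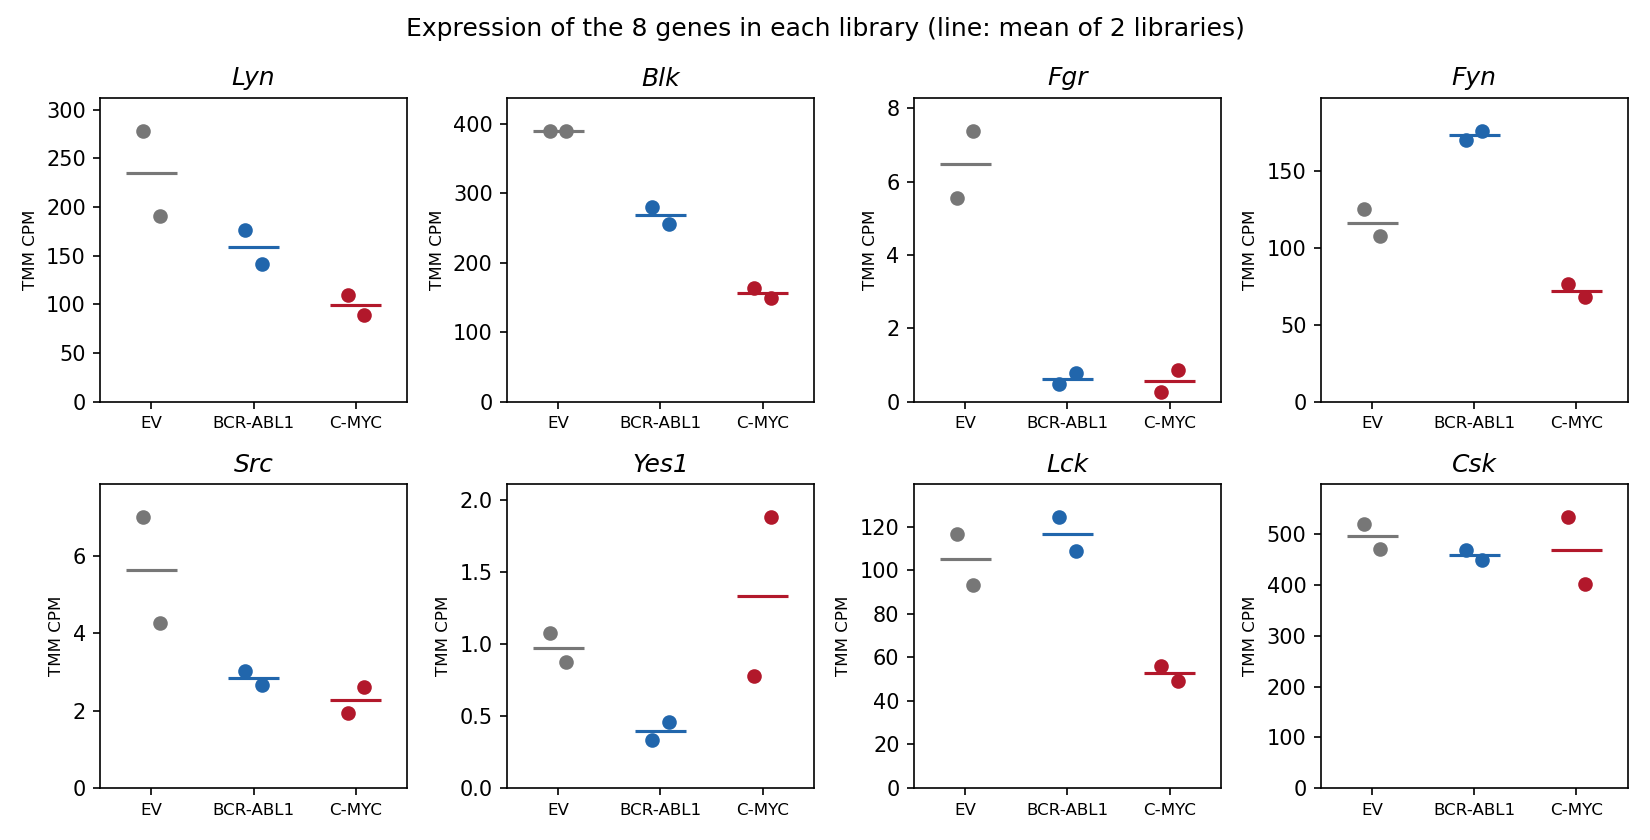
Level of each of the 8 genes in every library, in TMM-scaled CPM on an axis that starts at 0; each point is 1 of the 2 libraries of a condition and each line their mean. Lyn, Blk, Fyn and Lck all lie lower in C-MYC than in either other condition, Fgr is high in EV alone, and for Csk the 2 C-MYC libraries span all the others.

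Between BCR-ABL1 and EV, 1 of the 8 genes was called higher and 2 lower, where of all genes tested 5.08% were called higher, 12.0% lower and 17.0% either way. The median log2 fold change of the 8 genes was -0.55, beside 0.00 over all genes tested. With a term for the replicate number, 4 of the 8 were called in this comparison, and 3224 of all 12786 genes. Between C-MYC and EV, 0 were higher and 6 lower, against 18.6% of all genes called higher, 24.5% lower and 43.1% either way. Their median log2 fold change was -1.12, and that of all genes was -0.08. Between BCR-ABL1 and C-MYC, 4 were higher in BCR-ABL1 and 0 lower, with a background of 11.9% higher, 11.5% lower and 23.4% either way, and the median of the 8 was 0.50. Markers of B cell precursors moved as well: of 10, 7 were lower in C-MYC than in EV and 0 higher (median log2 fold change -0.79), 7 were higher in BCR-ABL1 than in C-MYC and 0 lower, and 1 was higher and 2 lower in BCR-ABL1 than in EV. Their part in the changes of the kinases was not tested. The first 2 comparisons share the EV libraries, and each condition enters 2 of the 3.

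**Figure D2:**
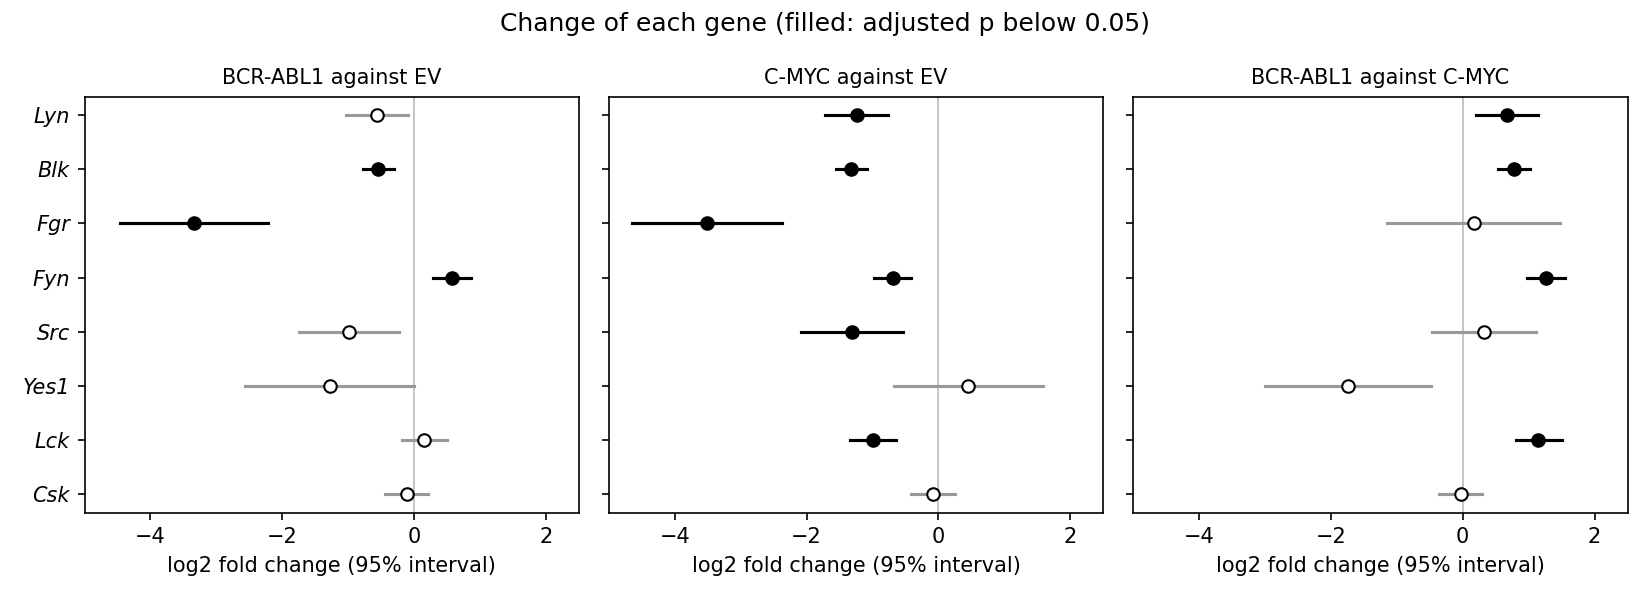
Log2 fold change of each gene in the 3 comparisons, with its 95% interval from edgeR's quasi-likelihood fit; filled points have an adjusted p below 0.05. In C-MYC against EV, 6 genes lie below 0 with filled points, and Fyn alone has a filled point above 0 in BCR-ABL1 against EV.

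The starts of the genes were read from RefSeq (GRCm38.p6), whose promoter windows span 250 bases before to 50 bases after a transcript start. There were 8 windows for 6 of the 8 genes, Fyn, Lck, Fgr, Src, Yes1 and Csk. The windows of Fyn, Lck and Fgr are printed, because Fyn and Lck differed most between the oncogenes among the genes called there and Fgr differed most from EV. Capitals mark the letters GAGGAA or their reverse complement, the core of sites bound by the myeloid and B cell factor PU.1.

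Fyn promoter, chr10:39369549-39369848, plus strand: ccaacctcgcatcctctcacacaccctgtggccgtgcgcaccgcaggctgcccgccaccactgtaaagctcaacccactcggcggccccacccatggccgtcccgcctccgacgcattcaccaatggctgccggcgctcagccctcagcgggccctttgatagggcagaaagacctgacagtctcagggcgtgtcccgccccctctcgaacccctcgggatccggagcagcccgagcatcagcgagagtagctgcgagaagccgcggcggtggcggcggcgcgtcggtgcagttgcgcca
Lck distal promoter, chr4:129573592-129573891, minus strand: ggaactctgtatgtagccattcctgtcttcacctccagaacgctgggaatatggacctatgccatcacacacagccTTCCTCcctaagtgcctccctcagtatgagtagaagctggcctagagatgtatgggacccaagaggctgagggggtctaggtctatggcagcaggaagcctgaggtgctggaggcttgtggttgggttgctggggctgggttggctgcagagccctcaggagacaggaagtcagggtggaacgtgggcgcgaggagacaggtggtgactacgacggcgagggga
Lck promoter nearer the coding exons, chr4:129558323-129558622, minus strand: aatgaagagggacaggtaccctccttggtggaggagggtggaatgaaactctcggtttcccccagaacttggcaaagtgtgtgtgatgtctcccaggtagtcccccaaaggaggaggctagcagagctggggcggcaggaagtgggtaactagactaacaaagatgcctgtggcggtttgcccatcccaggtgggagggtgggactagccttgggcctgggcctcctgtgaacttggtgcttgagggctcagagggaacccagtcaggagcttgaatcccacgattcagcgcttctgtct
Fgr promoter, chr4:132973845-132974144, plus strand: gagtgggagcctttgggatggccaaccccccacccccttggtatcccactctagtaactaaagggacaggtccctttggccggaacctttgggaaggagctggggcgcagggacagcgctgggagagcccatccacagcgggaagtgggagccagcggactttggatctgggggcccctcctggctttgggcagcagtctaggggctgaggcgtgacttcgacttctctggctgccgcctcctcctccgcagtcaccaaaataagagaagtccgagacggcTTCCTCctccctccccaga

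The Fyn window had a GC content of 69.0% with 31 CpG dinucleotides, against a median of 52.7% and 7 over all 32851 RefSeq windows. The windows of Lck held 58.3% GC with 7 CpG (distal) and 57.3% with 5 CpG, close to that median, and the Fgr window held 62.7% with 11 CpG. The GC-rich end of the family was Src, with 82.3% and 47 CpG, and Yes1, with 77.0% and 42 CpG. Searched on both strands, and with no match overlapping another, GAGGAA was in 28.3% of all windows, and here it was found 1 time each in Fgr, Src and the distal Lck window. The 2 Csk windows held it 1 and 3 times, and the windows of Fyn and Yes1 and the second Lck window held none. CACGTG, the E-box that MYC binds, was in 7.15% of all windows and in none of these 8. TTCNNNGAA, the letters that STAT factors bind, was in 8.3% of all windows and in none of these 8. Such letter matches are descriptions and not sites.

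Lyn is the SRC family kinase of B cells with both activating and inhibitory roles, and lies on chromosome 4 of GRCm38 from 3678115 to 3813122. It had 5963 and 4564 counts with EV, 3715 and 3401 with BCR-ABL1 and 2390 and 1974 with C-MYC. The conditions did not overlap and lay in that order, with mean levels of 235 ± 62.2 CPM with EV, 159 ± 24.6 with BCR-ABL1 and 99.25 ± 15.0 with C-MYC (SD, n = 2 libraries each). Lyn was 2.365-fold lower in C-MYC than in EV (log2 fold change -1.24, standard error (SE) 0.21, adjusted p = 0.00253). Against EV, Lyn in BCR-ABL1 had a log2 fold change of -0.56 (SE 0.20, 95% interval -1.03 to -0.10, adjusted p = 0.0996) and was not called. With a term for the replicate number, the paired fit, this log2 fold change was -0.55 with an adjusted p of 0.00566. The 2 EV libraries were 278.7 and 190.8 CPM, further apart than those of any other condition, and the log2 fold change was -0.26 (adjusted p = 0.299) without EV replicate 1 and -0.81 (adjusted p = 0.0107) without EV replicate 2. Lyn was higher in BCR-ABL1 than in C-MYC by 0.68 on the log2 scale (SE 0.20, adjusted p = 0.0477), a call that was lost in 7 of 13 alternatives, with an adjusted p up to 0.285 when BCR-ABL1 replicate 1 was left out. Each of the other 3 libraries of these conditions, left out in turn, also ended that call (adjusted p of 0.0809 without BCR-ABL1 replicate 2, 0.0953 without C-MYC replicate 1 and 0.243 without C-MYC replicate 2). The sums of myeloid and of T and NK cell markers were also highest in EV, and the part of those cells in the Lyn result was not tested. The gene shares 248 bases of exon with Gm26857, a non-coding RNA on the opposite strand. The strand setting of the counting is not given in the sources used here.

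Blk, a kinase made chiefly in B cells, is on chromosome 14 from 63372836 to 63417037. Its counts were 8354 and 9331 with EV, 5920 and 6155 with BCR-ABL1 and 3565 and 3320 with C-MYC. Each step was larger than the spread between libraries, with means of 390.3 ± 0.332, 268 ± 17.6 and 156.5 ± 10.45 CPM. Blk was 1.455-fold lower in BCR-ABL1 than in EV (log2 fold change -0.54, SE 0.10, adjusted p = 0.0113) and 2.49-fold lower in C-MYC than in EV (-1.32, SE 0.10, adjusted p = 0.000247). It was higher in BCR-ABL1 than in C-MYC by 0.78 on the log2 scale (SE 0.10, adjusted p = 0.00298). The call between BCR-ABL1 and EV was lost without BCR-ABL1 replicate 1 (adjusted p = 0.0713) or replicate 2 (adjusted p = 0.139). On counts, the log2 ratio of Lyn to Blk was -0.76 ± 0.39 with EV, -0.76 ± 0.13 with BCR-ABL1 and -0.66 ± 0.12 with C-MYC. The differences between these means were smaller than the spread between the EV libraries.

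Fyn, which acts at the antigen receptors of B and T cells, is on chromosome 10 from 39368855 to 39565381 and took a different order. It had 2684 and 2571 counts with EV, 3591 and 4243 with BCR-ABL1 and 1660 and 1510 with C-MYC. BCR-ABL1 was highest with 173 ± 4.29 CPM, EV had 116.5 ± 12.7 and C-MYC 72.05 ± 6.01, and no libraries overlapped between conditions. Fyn was 1.49-fold higher in BCR-ABL1 than in EV (log2 fold change 0.57, SE 0.12, adjusted p = 0.0167), and 1.62-fold lower in C-MYC than in EV (-0.69, SE 0.12, adjusted p = 0.00335). Of the 8 genes it had the largest difference among those called between the oncogenes, 2.405-fold higher in BCR-ABL1 (log2 fold change 1.27, SE 0.12, adjusted p = 0.000955). The rise over EV lost its call without BCR-ABL1 replicate 1 (adjusted p = 0.1002) or replicate 2 (adjusted p = 0.147), while both comparisons with C-MYC kept theirs in all 13 alternatives.

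Lck, the kinase of the T cell receptor, is on chromosome 4 from 129548344 to 129573641. It had 2497 and 2229 counts with EV, 2627 and 2623 with BCR-ABL1 and 1221 and 1093 with C-MYC. EV and BCR-ABL1 overlapped at 105 ± 16.65 and 117 ± 10.99 CPM, and C-MYC lay below both at 52.6 ± 4.98 CPM. The log2 fold change between BCR-ABL1 and EV was 0.15 (95% interval -0.19 to 0.50, adjusted p = 0.533). Lck was 1.995-fold lower in C-MYC than in EV (log2 fold change -0.996, SE 0.15, adjusted p = 0.00178) and 2.22-fold higher in BCR-ABL1 than in C-MYC (1.15, SE 0.15, adjusted p = 0.0028). Cd3e, a defining chain of the T cell receptor complex, had 365 and 369 counts with EV, 17 and 27 with BCR-ABL1 and 16 and 12 with C-MYC. The count ratio of Lck to Cd3e was 6.84 and 6.04 with EV, 154.5 and 97.15 with BCR-ABL1 and 76.3 and 91.1 with C-MYC. Of the 13 T and NK cell markers, 12 were called lower in BCR-ABL1 than in EV and 10 in C-MYC, where 12.0% and 24.5% of all genes were. Between BCR-ABL1 and C-MYC, where Lck differed, 0 of the 13 markers were called by edgeR, beside 23.4% of all genes. Of the 13, 4 had an unadjusted p below 0.05, as did 4780 of all 12786 genes tested. The median log2 fold change of the 13 had the direction of Lck, at 0.52. Of the 4, Klrb1c, Cd247 and Cd8a were on the side of Lck, with log2 fold changes of 1.47, 1.29 and 0.97, and Thy1 was on the other, with -0.89. The part of T and NK cells in the Lck result was not tested.

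Fgr is a kinase of myeloid cells on chromosome 4 from 132974095 to 133001910, and had 119 and 177 counts with EV, 10 and 19 with BCR-ABL1 and 6 and 19 with C-MYC. It was high in EV alone, at 6.48 ± 1.298 CPM against 0.632 ± 0.223 in BCR-ABL1 and 0.5645 ± 0.408 in C-MYC, and these last 2 conditions overlapped. Fgr was 10.1-fold lower in BCR-ABL1 than in EV (log2 fold change -3.34, SE 0.48, adjusted p = 0.00398) and 11.35-fold lower in C-MYC (-3.50, SE 0.49, adjusted p = 0.00136), the largest change of the 8 genes in both comparisons. The C-MYC value rests on few counts: it was -2.91 without C-MYC replicate 1 and -4.52 without C-MYC replicate 2, and was called in both cases. Between BCR-ABL1 and C-MYC its log2 fold change was 0.17 (95% interval -1.14 to 1.48, adjusted p = 0.858). The myeloid markers moved with Fgr: 11 of 11 were called lower in BCR-ABL1 than in EV (median log2 fold change -3.64), and 10 of 11 in C-MYC (median -3.00), where 12.0% and 24.5% of all genes were. Of the defining markers none was at 0, and Mpo, Elane, Csf1r and Lyz2 were measured in every condition. The part of myeloid cells in the Fgr result was not tested.

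**Figure D3:**
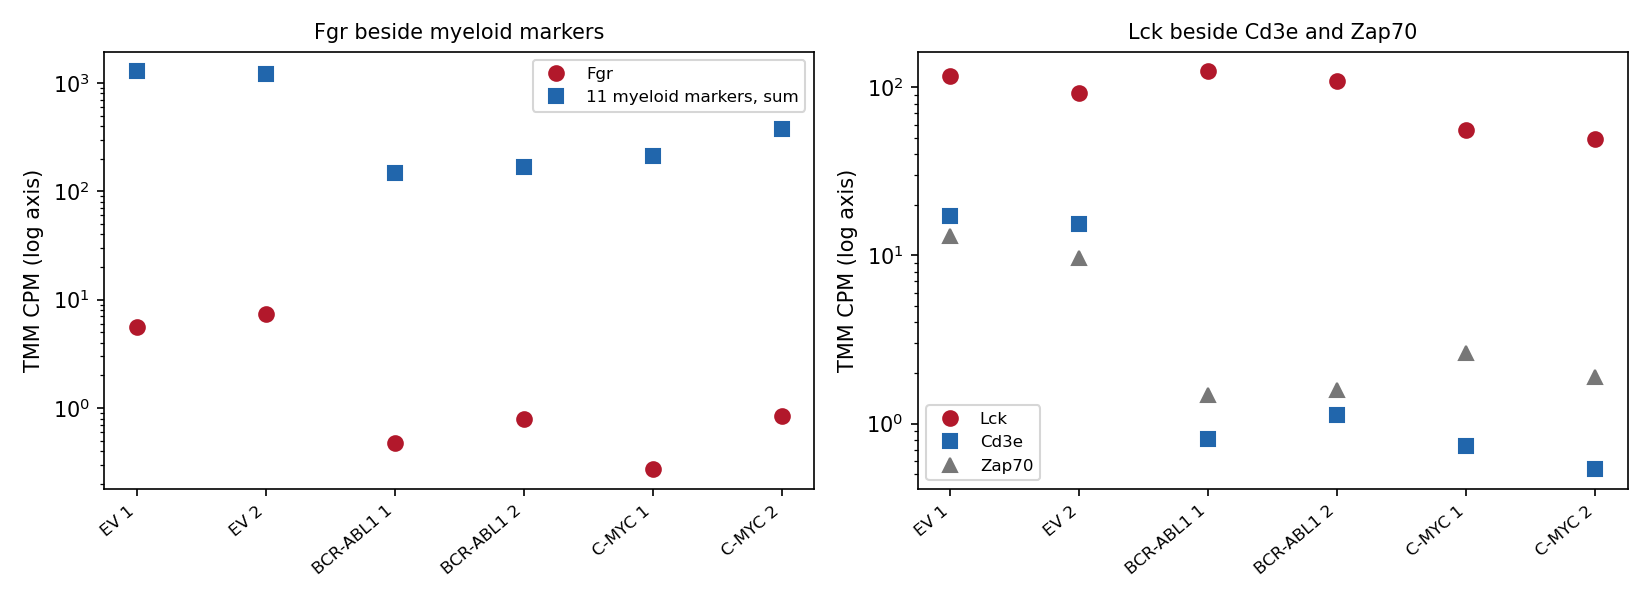
Levels in each library, in TMM-scaled CPM on a log axis: on the left Fgr and the sum of 11 myeloid markers, on the right Lck, Cd3e and Zap70. Fgr and the myeloid sum are both highest in the 2 EV libraries; Cd3e and Zap70 are as well, while Lck lies at 124.5 and 109 CPM in BCR-ABL1 and at 117 and 93.2 in EV.

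Src, the founding member of the family, is on chromosome 2 from 157418444 to 157471862 and was scarce. It had 150 and 102 counts with EV, 64 and 64 with BCR-ABL1 and 42 and 58 with C-MYC, or 5.64 ± 1.94, 2.85 ± 0.265 and 2.27 ± 0.4765 CPM. Both oncogene conditions lay below EV without overlap, and only C-MYC was called (log2 fold change -1.31, SE 0.33, adjusted p = 0.0153). That call was lost without C-MYC replicate 1 (adjusted p = 0.102). Against EV, BCR-ABL1 had a log2 fold change of -0.98 (SE 0.33, 95% interval -1.74 to -0.23, adjusted p = 0.0799), which was -1.30 and called without EV replicate 2 (adjusted p = 0.0163), and -0.58 and not called without EV replicate 1 (adjusted p = 0.218). Between the oncogenes it was 0.33 (95% interval -0.46 to 1.11, adjusted p = 0.528). The stromal markers named at the start were high in EV as well. Of 6, 5 were called lower in BCR-ABL1 than in EV and all 6 in C-MYC, beside 12.0% and 24.5% of all genes. Their median log2 fold changes, -4.285 and -5.95, were larger in size than those of Src. Between EV 1 and EV 2, Src went from 7.01 to 4.26 CPM and the stromal sum from 104 to 157. The myeloid and the T and NK cell sums were highest in EV too. Between EV 1 and EV 2 they went from 1280 to 1207 CPM and from 309 to 236 CPM, down as Src did. The part of any of these cells in the Src result was not tested.

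Yes1, a close relative of Src, is on chromosome 5 from 32611171 to 32687057 and had the fewest counts of the 8 genes. They were 23 and 21 with EV, 7 and 11 with BCR-ABL1 and 17 and 42 with C-MYC. BCR-ABL1 lay lowest at 0.394 ± 0.0885 CPM, and EV at 0.976 ± 0.1395 CPM fell inside the spread of C-MYC at 1.33 ± 0.781 CPM. No comparison was called: the log2 fold change was -1.28 between BCR-ABL1 and EV (SE 0.56, adjusted p = 0.162), 0.45 between C-MYC and EV (SE 0.49, adjusted p = 0.488) and -1.74 between BCR-ABL1 and C-MYC (SE 0.54, adjusted p = 0.0541). The last passed in the paired fit (adjusted p = 0.0345), and in 6 of 13 alternatives in all, among them those without EV replicate 1 (adjusted p = 0.0425), without EV replicate 2 (adjusted p = 0.0416) and without C-MYC replicate 1 (adjusted p = 0.0464). Without C-MYC replicate 2 the value was -0.97 (adjusted p = 0.349). Yes1 shares 635 bases of exon with Gm10461, a provisional transcript on the opposite strand.

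Csk, the inhibitor of the whole family, is on chromosome 9 from 57626646 to 57653631 and was the most abundant of the 8 by CPM. It had 11153 and 11286 counts with EV, 9906 and 10809 with BCR-ABL1 and 11638 and 8968 with C-MYC, with means of 496.5 ± 35.1, 459 ± 14.5 and 469 ± 93.5 CPM. The C-MYC libraries spanned those of both other conditions. Its log2 fold change was -0.11 in BCR-ABL1 against EV (95% interval -0.44 to 0.22, adjusted p = 0.642), -0.08 in C-MYC against EV (-0.41 to 0.24, adjusted p = 0.668) and -0.03 between the oncogenes (-0.36 to 0.30, adjusted p = 0.903). On the deposited FPKM, by limma on log2(FPKM + 1), the log2 fold changes against EV were larger, -0.50 in BCR-ABL1 (adjusted p = 0.118) and -0.46 in C-MYC (adjusted p = 0.0776), and were not called. EV replicate 2 stood apart there, with 237.7 FPKM against 170.4 in EV replicate 1 and 133.1 to 159.9 in the other libraries. Relative to the median gene, its FPKM was 1.205 times the CPM per kilobase of exon, where the other 5 libraries had 0.7145 to 0.791 times. With Csk of the same library as reference, which removes library scaling, the log2 count ratio of Blk to Csk was -0.42 and -0.27 with EV, -0.74 and -0.81 with BCR-ABL1 and -1.71 and -1.43 with C-MYC. That of Lyn was -0.90 and -1.31 with EV, -1.42 and -1.67 with BCR-ABL1 and -2.28 and -2.18 with C-MYC. Fyn to Csk was -2.055 and -2.13 with EV, -1.46 and -1.35 with BCR-ABL1 and -2.81 and -2.57 with C-MYC. For these 3 kinases the conditions did not overlap on this scale either.

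Levels of different genes were compared per length, in the deposited FPKM values. Another measure of length, given below, gives a different order for Csk, Lck, Lyn and Blk. In EV the order was Csk, Lck, Lyn, Blk, Fyn, Fgr, Yes1 and Src, with 204 ± 47.5 FPKM for Csk, of which EV replicate 2 had the higher value, 138 ± 19.9 for Lck and 109 ± 21.4 for Lyn. Lck and Lyn overlapped there, as did Yes1 and Src, both under 1 FPKM. In BCR-ABL1, Lck had 150.1 ± 12.3 FPKM and Csk 142 ± 2.07, which overlapped, followed by Lyn at 69.0 ± 10.7, Blk at 49.9 ± 2.92 and Fyn at 37.2 ± 1.14. C-MYC had Csk at 146.5 ± 18.9 FPKM, well above Lck at 57.7 ± 13.1, and then Lyn, Blk and Fyn at 44.6 ± 5.52, 28.3 ± 1.15 and 14.9 ± 0.815. The 3 scarcest kinases lay between 0.287 and 1.08 FPKM in C-MYC and between 0.328 and 0.379 in BCR-ABL1, where the 3 overlapped.

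Lyn, Blk, Lck and Fyn made up 98.4% of the summed FPKM of the 7 kinases with EV, 99.65% with BCR-ABL1 and 98.8% with C-MYC. The sum itself was 355 ± 41.2 FPKM with EV, 307 ± 24.6 with BCR-ABL1 and 147 ± 19.7 with C-MYC, and the C-MYC libraries lay below all others. In BCR-ABL1 the share of Lck was 48.9% and 48.8%, above the 39.55% and 38.0% of EV and the 41.6% and 36.4% of C-MYC. The share of Fyn was 11.2% and 13.1% with BCR-ABL1 and 9.615% and 10.8% with C-MYC, where EV had 7.28% and 7.43%. Lyn took 22.4% ± 1.68 of the sum in BCR-ABL1, less than the 30.6% ± 2.48 of EV and the 30.3% ± 0.2998 of C-MYC.

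These shares depend on the measure of length. By CPM per kilobase of annotated exon, Blk led at 54.2% with EV, 45.4% with BCR-ABL1 and 49.3% with C-MYC, and Lck had 13.3%, 18.2% and 15.3%. The share of Lyn by this measure was 24.0% and 18.7% with EV and 18.8% and 16.7% with BCR-ABL1, so these conditions overlapped. Relative to the median gene, FPKM was 0.307 to 0.345 times the CPM per kilobase for Blk and 1.85 to 2.49 times for Lck. It was 3.82 to 4.06 times for Yes1, whose exons span 7508 bases in the annotation, against 2698 for Blk. In EV the order by CPM per kilobase was Blk at 144.6, Csk at 132.9, Lyn at 57.6 and Lck at 35.8. Blk lay above Lyn in BCR-ABL1 (99.4 against 38.97) and in C-MYC (58.0 against 24.4) as well. Which of the 2 measures gives the true order of Csk, Lck, Lyn and Blk was not tested. What both measures share is that Fyn and Lck had a larger share of the sum in both BCR-ABL1 libraries than in both EV libraries, and Blk a smaller one.

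**Figure D4:**
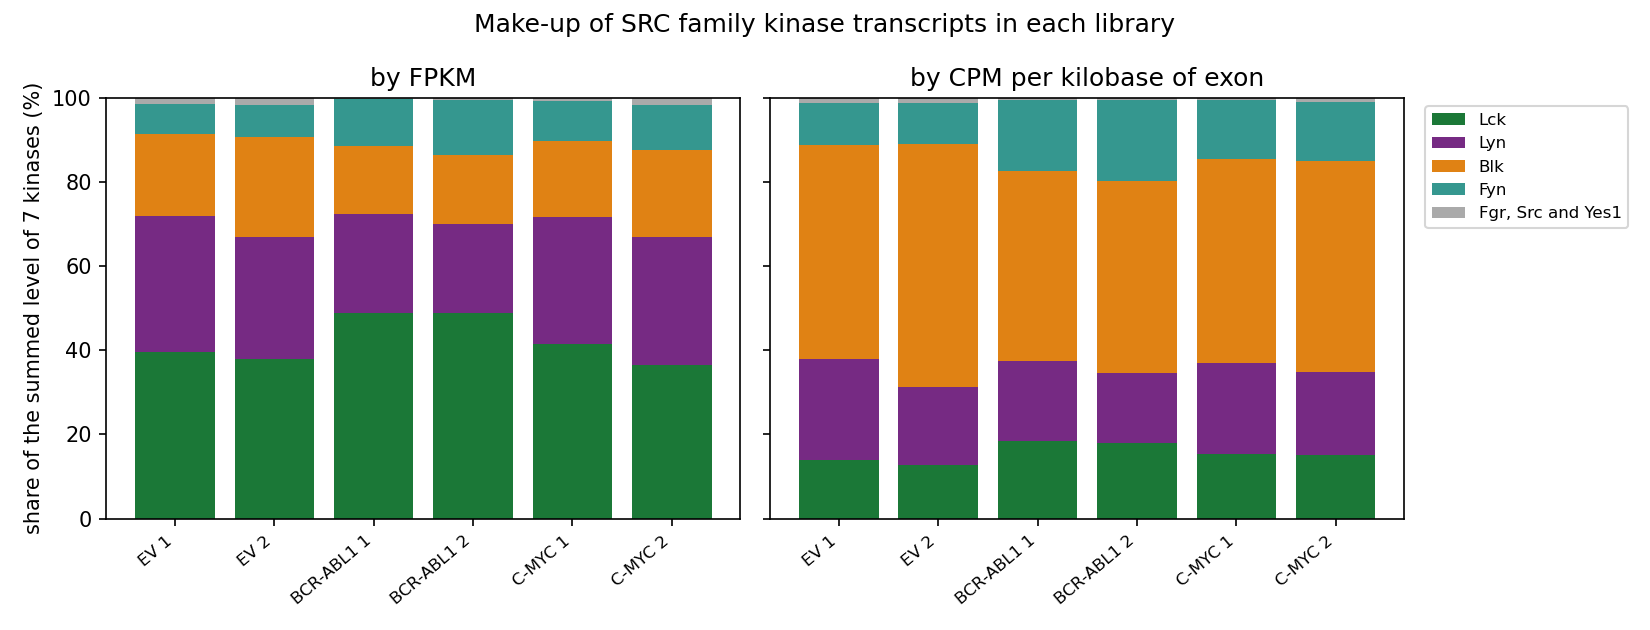
Share of the summed level of the 7 kinases in each library, in percent, by FPKM on the left and by CPM per kilobase of exon on the right. Lck is the largest band by FPKM and Blk by counts per kilobase; in both panels the Fyn band is wider in the 2 BCR-ABL1 libraries than in EV.

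For the 6 kinases called in at least 1 comparison, the 3 genes of most similar pattern were sought among 10622 genes that averaged 50 counts or more, by the Euclidean distance of log2(CPM + 0.5) values centred over the 6 libraries. For Lyn these were 4930523C07Rik (distance 0.14), B2m, the light chain of MHC class I (0.16), and Tnfrsf13c, the BAFF receptor of B cells (0.17). Blk was nearest to Ap3m2 (0.14), Mapk1ip1 (0.17) and Dennd4b (0.19). Fyn was nearest to Leprotl1 (0.17), Acvr1 (0.21) and Cdkn2a (0.24), the tumor suppressor locus of p16 and ARF, which had 1009 and 906 counts with EV, 1272 and 1436 with BCR-ABL1 and 494 and 516 with C-MYC. Lck was nearest to Hip1r (0.13), Pced1b (0.15) and Zdhhc18 (0.15). Src was nearest to Tmem2 (0.21), Gm1966 (0.22) and Litaf (0.23). Fgr was nearest to Slamf8, a receptor of myeloid cells (0.47), then March1 (0.55) and F13a1 (0.55). With a pseudocount of 2, all 3 names changed for Blk and for Src, and at least 1 of the 3 changed for Fgr, Fyn and Lck. Over 6 libraries in 3 conditions many genes share such patterns, and the likeness is a description.

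Apart from Csk, genes counted as brakes on SRC family kinases were measured as a list of 8. Between BCR-ABL1 and EV, 0 were called higher and 1 lower, Ptpn12 (log2 fold change -0.56, SE 0.16, adjusted p = 0.04897). C-MYC cells had 5 of the 8 lower than EV cells and 0 higher, with a list median of -0.40. Of all genes tested, 12.0% were lower in the first of these comparisons and 24.5% in the second, so that the 1 of 8 in BCR-ABL1 is close to the background. Ptpn22, a phosphatase that removes the activating phosphate, fell most, from 884 and 584 counts in EV to 174 and 158 in C-MYC (log2 fold change -2.12, SE 0.30, adjusted p = 0.00148). It had 424 and 316 counts in BCR-ABL1, higher than in C-MYC by 1.14 on the log2 scale (SE 0.30, adjusted p = 0.0313). Lime1, Cblb, Cbl and Ptpn18 were the others lower in C-MYC. Between the oncogenes, 3 of the 8 were higher in BCR-ABL1 (Ptpn22, Cblb and Ptpn18) and 1 was lower (Ptpn12), beside 11.9% and 11.5% of all genes. Pag1, the membrane anchor that brings Csk to the kinases, had 11187 and 10449 counts with EV, 9990 and 11494 with BCR-ABL1 and 8886 and 8057 with C-MYC, and was not called in any comparison.

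Of 6 phosphatases that open the kinases, 1 was lower in BCR-ABL1 than in EV (Ptprj, CD148, log2 fold change -0.96, SE 0.21, adjusted p = 0.0198), and 3 were lower in C-MYC (Ptprj, Ptprc and Ptpre), with 0 higher in either, beside 12.0% and 24.5% of all genes called lower. The 1 of 6 in BCR-ABL1 is near that background. Ptprc, which encodes CD45, had 9485 and 8224 counts with EV, 6670 and 6733 with BCR-ABL1 and 3518 and 3959 with C-MYC. It was lower in C-MYC than in EV by a log2 fold change of -1.21 (SE 0.14, adjusted p = 0.000706), and in BCR-ABL1 the value was -0.40 (SE 0.14, adjusted p = 0.095). Between the oncogenes, 2 were higher in BCR-ABL1, Ptpn1 and Ptprc, where 11.9% of all genes were. Of 4 genes of the myristoylation and membrane transport that anchor the kinases, 0 were called by edgeR between BCR-ABL1 and EV, and 0 had an unadjusted p below 0.05, where 17.0% of all genes were called. All 4 were called in C-MYC against EV, with a background of 43.1%: the N-myristoyltransferases Nmt2 (log2 fold change 0.86, SE 0.14, adjusted p = 0.00232) and Nmt1 (0.34, SE 0.11, adjusted p = 0.0439) were higher, and the lipid-binding carriers Unc119 and Unc119b were lower.

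The pre-B cell receptor chains and the proteins that act below the kinases formed a list of 14. Against EV, 1 was higher and 4 lower in BCR-ABL1 (list median -0.11), and 0 were higher and 10 lower in C-MYC (list median -0.77). The shares of all genes were 5.08% higher and 12.0% lower in the former, and 18.6% higher and 24.5% lower in the latter. Between the oncogenes, 7 were higher in BCR-ABL1 and 0 lower, against 11.9% and 11.5% of all genes. Syk, the kinase recruited by the phosphorylated receptor, had 16439 and 18216 counts with EV, 12897 and 12632 with BCR-ABL1 and 9667 and 8803 with C-MYC. Its log2 fold changes against EV were -0.43 in BCR-ABL1 (SE 0.11, adjusted p = 0.0362) and -0.87 in C-MYC (SE 0.11, adjusted p = 0.000975), so that it took the same order of conditions as Lyn and Blk. Bank1, a scaffold that binds Lyn and Blk in B cells, took the order of Fyn: 119 and 189 counts with EV, 464 and 574 with BCR-ABL1 and 46 and 67 with C-MYC. It was higher in BCR-ABL1 than in EV by 1.77 on the log2 scale (SE 0.24, adjusted p = 0.0033) and lower in C-MYC (-1.39, SE 0.26, adjusted p = 0.00452). Zap70, the counterpart of Syk in T cells, had 281 and 231 counts with EV, 31 and 38 with BCR-ABL1 and 57 and 42 with C-MYC, and was lower in both (log2 fold changes -2.90 and -2.34), as the T cell markers were. The part of T cells in the Zap70 result was not tested.

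The inhibitory receptors that Lyn phosphorylates and their effectors, a list of 13, were lower in 8 cases in BCR-ABL1 and in 10 in C-MYC than in EV, with 0 higher in either and list medians of -1.04 and -1.32. Over all genes, 12.0% and 24.5% were lower. Between the oncogenes, 7 were higher in BCR-ABL1 and 3 lower, with backgrounds of 11.9% and 11.5%. Cd72, an inhibitory coreceptor of B cells, was among those lower in BCR-ABL1, with 706 and 741 counts against 1766 and 2336 in EV and 1530 and 1654 in C-MYC (log2 fold change against EV -1.49, SE 0.13, adjusted p = 0.000764). Cd22, named after its values were seen, had 262 and 353 counts with BCR-ABL1, 701 and 897 with EV and 576 and 548 with C-MYC, and was lower in BCR-ABL1 than in C-MYC by a log2 fold change of -0.91 (SE 0.16, adjusted p = 0.0069). Fcgr2b, the inhibitory Fc receptor of B cells, was instead lowest in C-MYC: 621 and 462 counts there, 1413 and 1278 in BCR-ABL1, and 2364 and 1737 in EV, with a log2 fold change of -1.89 in C-MYC against EV (SE 0.25, adjusted p = 0.00100). Cd5, which T cells also carry, and Pirb and Lair1, which myeloid cells also carry, were lower in BCR-ABL1 than in EV beside the markers of those cells, and that part was not tested.

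Of 10 adhesion substrates and adaptors of SRC family kinases, 1 was higher and 4 were lower in BCR-ABL1 than in EV, and 0 were higher and 8 lower in C-MYC. Of all genes, 5.08% were higher and 12.0% lower in BCR-ABL1, and 18.6% higher and 24.5% lower in C-MYC. The 1 higher was Ptk2, the focal adhesion kinase FAK that Src binds, with 53 and 89 counts with EV, 256 and 215 with BCR-ABL1 and 90 and 113 with C-MYC. It was higher in BCR-ABL1 than in EV by 1.76 on the log2 scale (SE 0.29, adjusted p = 0.00676) and than in C-MYC by 1.19 (SE 0.28, adjusted p = 0.0215). Skap1, an adaptor of T cells that binds Fyn, had 258 and 250 counts with EV, 20 and 20 with BCR-ABL1 and 15 and 36 with C-MYC, again beside the T cell markers. Between the oncogenes, 2 of the 10 were higher in BCR-ABL1, Ptk2 and Nedd9, and 1 was lower, Fyb. Of all genes, 11.9% were higher and 11.5% lower there, so that both counts are near the background.

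**Figure D5:**
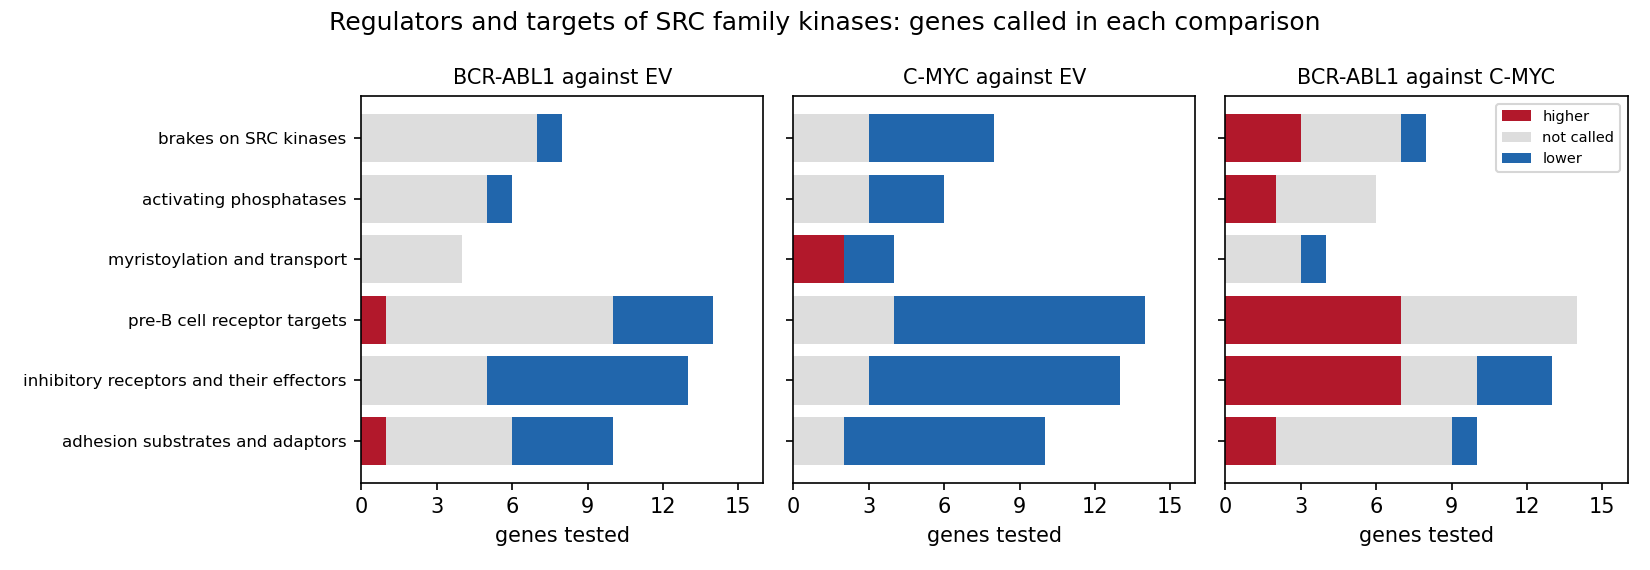
Number of genes tested in each list of regulators and targets of SRC family kinases that were called higher (left end of a bar), not called (middle) or called lower (right end) in each comparison. The lists have more genes called lower in C-MYC against EV than in BCR-ABL1 against EV, from 2 of 4 for myristoylation and transport to 8 of 10 for adhesion substrates; of all genes, 24.5% were lower in C-MYC and 12.0% in BCR-ABL1.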

How the data were processed

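Poly(A) RNA-seq of 6 libraries was used, 2 for each of EV, BCR-ABL1 and C-MYC, grouped by the sample labels. The authors aligned reads to GRCm38/mm10 with STAR 2.5.0 and deposited raw counts per gene symbol. They calculated the deposited FPKM values with StringTie 1.3.0. The counting program and its strand setting are not given in the sources used here. ChIP-seq data were not analysed here.

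Counts were tested with edgeR 4.0.16 (R 4.3.3) by the quasi-likelihood test with all 6 libraries in 1 model, filterByExpr by condition (minimum count 10), TMM scaling and Benjamini-Hochberg adjustment over 12786 of 24421 genes, at an adjusted p below 0.05. The standard error is the absolute log2 fold change divided by the square root of F. CPM are TMM-scaled, and CPM per kilobase used the merged exons of the GENCODE annotation of GRCm38, found for 95.5% of genes. The script was tested on simulated data. Python 3.11.15 with pandas 2.3.3 and matplotlib 3.10.9 was also used. Alternatives were median-ratio size factors, DESeq2 1.42.0, no filter, only the 4 libraries compared, limma 3.58.1 on log2(FPKM + 1) and log2(FPKM + 0.1), a term for the replicate number, and leaving out each library.

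RNA was extracted in duplicate experiments, per the study's methods, and the labels number the libraries 1 and 2 in each condition. Deviations of same-numbered libraries from their condition mean correlated across genes with r = 0.334 for EV and BCR-ABL1, 0.285 for EV and C-MYC, and 0.277 for BCR-ABL1 and C-MYC, so the numbers were taken to pair the libraries. Whether the duplicates came from separate mice is not stated, and p-values measure the spread between these libraries. Chi-square per degree of freedom between the replicates of a condition was 10.1 to 42.9, above counting noise. At 20687092 to 24095955 counts per library the spread between replicates (common biological coefficient of variation 0.151) limits precision for all but Fgr, Src and Yes1, which also have few counts.

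The 8 genes and the lists of regulators, targets and markers were chosen with earlier results of these data known. Genes named were the 8, Pag1, Ptpn22, Ptprc, Syk and Zap70, and up to 4 genes per list and comparison with the largest change among those called without overlap between libraries. The 3 nearest genes of each called kinase, and Myc and Trp53bp1 as checks, were named as well. Frk, Srms, Ptk6, Mpo, Elane, Csf1r, Lyz2 and Cd3e were named from the lists for their counts. Cd22, Klrb1c, Cd247, Cd8a, Thy1, Lat and Cd24a were chosen after their values were seen. Another gene of the naming rule is not reported here.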

Additional observations from a re-analysis of the deposited data

How the results depend on the processing

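Of 312 recomputed log2 fold changes of the 8 genes, 284 kept their direction and their side of the threshold, 11 became called, 12 lost the call and 5 changed sign. The 5 were small values that were not called: Yes1 and Csk in C-MYC against EV without C-MYC replicate 2, Fgr in BCR-ABL1 against C-MYC without BCR-ABL1 replicate 2 (-0.26) or C-MYC replicate 1, and Csk there without C-MYC replicate 1. Over the libraries left out, these ranged from -0.31 to 0.96 for Yes1 and from -0.30 to 0.11 for Csk in C-MYC against EV, and from -0.42 to 1.19 for Fgr and from -0.22 to 0.19 for Csk in BCR-ABL1 against C-MYC. The number of the 8 genes called was 3 in BCR-ABL1 against EV, 5 without the filter on low counts and 1 to 5 when a library was left out. It was 6 in C-MYC against EV (5 to 6) and 4 in BCR-ABL1 against C-MYC (3 to 5). Over all genes, leaving out a library gave 665 to 2729 calls in place of 2180, 3329 to 6077 in place of 5515, and 618 to 4519 in place of 2991, and only the 4 libraries compared gave 4538 for the last. Fits without an EV library raised the last count, and fits without a BCR-ABL1 or C-MYC library lowered it. With 1 library left in a condition, it was assumed to vary like the others.

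Pairing by replicate number (the replicate block) changed 2 calls, giving Lyn in BCR-ABL1 against EV a log2 fold change of -0.55 (adjusted p = 0.00566) and Yes1 in BCR-ABL1 against C-MYC -1.71 (adjusted p = 0.0345), and it changed no other call of the 8 genes. Counts of 7 to 42 limit Yes1, and counts of 6 to 19 limit Fgr outside EV.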

Other observations

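Further kinases related to the family were scarce: Frk had at most 5 counts, Srms at most 2 and Ptk6 at most 1 in any library, and none of these 3 passed the filter on low counts. Of the 11 myeloid markers, 3 were lower in BCR-ABL1 than in C-MYC by the quasi-likelihood test of edgeR (Benjamini-Hochberg adjusted p below 0.05), beside 11.5% of all genes. The 3 were the macrophage genes Csf1r, Adgre1 and Mrc1. Csf1r had 1765 and 3461 counts with EV, 224 and 290 with BCR-ABL1 and 651 and 1222 with C-MYC. Mrc1 had 283 and 881 counts with EV, 108 and 186 with BCR-ABL1 and 331 and 755 with C-MYC.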
